A study of Mus musculus with 46 samples.

Results

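Loss of Dicer in adult microglia at steady state was examined in 7 of the 46 libraries of the series, namely all libraries of a deposited table of adult steady-state cells. The Dicer-deficient group is Cx3cr1CreER:Dicerfl/- (n = 3, Dicer_1 to Dicer_3), and the control group is Cx3cr1CreER:Dicer+/- (n = 4, WT_1 to WT_4). The controls are labelled WT, yet like the Dicer-deficient mice they carry the Cre and 1 Dicer minus allele, so that 1 floxed against 1 intact copy separates the groups. CreER is a recombinase that acts only after tamoxifen, here expressed from Cx3cr1, a locus that microglia share with other macrophages and monocytes. The tamoxifen schedule is not given in the sources used here. All mice were 10 to 12 weeks old, and microglia were sorted fresh from brain as CD45intCD11b+F4/80+Ly6C-Ly6G-. Poly(A) RNA was sequenced in bulk. The labels do not say whether the libraries are separate animals, and the p-values therefore speak only to library-to-library spread, which may be technical. Of the 19762 genes in the table, 11045 reached a normalised read count of at least 1 in at least 3 libraries and were tested.

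Dicer cuts precursor hairpins into mature microRNAs, which guide Argonaute proteins to matching sites in the 3′ untranslated region (UTR) of messenger RNAs. Pairing starts at the seed, bases 2 to 8 of the microRNA. TNRC6 proteins then recruit the deadenylases that shorten the messenger, so that its level and its translation fall. Microglia are the resident macrophages of the brain. They live long and divide rarely, survey the tissue through P2ry12 and Cx3cr1, and take up debris through complement, lectin and phosphatidylserine receptors.

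The libraries held 898451 to 1991621 reads in genes. The first principal component, 26.6% of the variance, placed the Dicer-deficient libraries at -80.2 to -26.9 and the controls at 25.04 to 46.8. The sorted cells carried microglial transcripts throughout: P2ry12 had 18109 to 27457 normalised reads in Dicer-deficient libraries and 19423 to 26484 in controls, and Csf1r 58303 to 71135 against 60801 to 79615. Sall1, a transcription factor of microglial identity, read 1233, 1398 and 1358 in Dicer-deficient libraries, against 1624, 1691, 1745 and 1453 in controls, and Siglech, a lectin of microglia, 5335, 6495 and 6253 in Dicer-deficient libraries, against 9122, 7098, 6922 and 6594 in controls. Neither pair of groups overlapped, which held for 16.5% of all tested genes. Neither gene passed the test (adjusted p = 0.279 for Sall1 and 0.334 for Siglech). Markers of other cells were present to different degrees. Summed lymphocyte markers reached 70.0 to 199 in Dicer-deficient libraries and 200.3 to 525 in controls, with 11 of 21 listed at 0 in all libraries, including Ms4a1, Cd3e and Cd3d. Vascular markers summed to 143 to 158 against 203 to 247 with 6 of 16 at 0, Cldn5 among them. Astrocyte markers summed to 661 to 1232 against 1424 to 1643 with 4 of 12 at 0, Gfap among them. Single genes carried much of these 3 sums, so the sums do not describe whole marker sets. Cd79b had 46.6 to 134 in Dicer-deficient libraries and 190 to 465 in controls. Slc1a3 had 596 to 1120 against 1381 to 1563, and Pecam1 30.9 to 41.7 against 139 to 195. Neutrophil and monocyte markers summed to 2827 to 3430.1 against 2791 to 3436. S100a8 was listed at 0 throughout, whereas S100a9 read 64.89 in Dicer_3, 24.75 in WT_1, 11.96 in WT_2 and 0 in the others. Ccr2, the lowest-p member of this list, read 139.92, 30.89 and 264.21 in Dicer-deficient libraries. In controls Ccr2 read 94.04, 35.89, 37.59 and 20.54, so the groups overlapped, and it was not called. Oligodendrocyte markers summed to 913 to 1034 in Dicer-deficient libraries and 1007 to 1451 in controls, and erythroid markers to 64.8 to 572 against 19.8 to 1340, highest in WT_4. Neuronal markers summed to 60.3 to 119.2 in Dicer-deficient libraries and 29.7 to 102.7 in controls. Border macrophage markers summed to 494.2 to 1237.6 against 643.5 to 1220.1. In both lists 0 members were called. A listed 0 may be a gene the table does not measure, since 31 of 79 ribosomal protein genes also stood at 0 throughout. Y-linked transcripts were high in Dicer_2, Dicer_3 and WT_1 and low in the other libraries, so both sexes were present in both groups. A model with a term for these classes called 354 genes in place of 569, 230 higher and 124 lower. The libraries low in Y-linked transcripts were 1 Dicer-deficient and 3 control, and those high in them 2 Dicer-deficient and 1 control, so that differences within each class carry no test.

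The Dicer1 transcript did not separate the groups. It read 117, 151 and 144 in Dicer-deficient libraries, against 153, 112, 113 and 97.6 in controls, with means of 137 ± 17.97 in Dicer-deficient microglia and 119 ± 24.1 in controls (SD, n = 3 and 4), and WT_1 was higher than every Dicer-deficient library. The difference did not pass the test (log2 fold change 0.22 ± 0.29 (SE), adjusted p = 0.764). A count over the whole gene does not see the loss of a floxed exon if the rest of the transcript is still made, so this value does not check the deletion. The 50 tested genes nearest to Dicer1 on its chromosome held 0 calls, and 10 of them (20%) had an unadjusted p under 0.05, beside 18.8% of all tested genes.

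In Dicer-deficient microglia 348 genes were called higher (3.15% of those tested) and 221 lower (2.00%) at an adjusted p under 0.05, 569 in all (5.15%). At least a 2-fold difference was found for 158 of the higher and 157 of the lower genes, and the median size of a called change was 1.05 on the log2 scale. The groups did not overlap in any library for 1819 tested genes (16.5%), and 18 of the called genes did overlap. The median log2 fold change of all tested genes was 0.05. Higher genes were more often well expressed: the mean was at least 140.3, the median over tested genes, for 311 of 348, beside 144 of 221 lower genes. The count moved when 1 library was left out, with fewer libraries in each such fit. It was 346 (178 higher, 168 lower) without Dicer_1, 344 (223 and 121) without WT_3, 368 (232 and 136) without WT_4 and 384 (246 and 138) without WT_1. Without WT_2 it was 413 (265 and 148) and without Dicer_3 470 (278 and 192). Without Dicer_2 it rose to 634 (396 and 238). In all 7 fits that left out 1 library, 234 genes (141 higher, 93 lower) were called.

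**Figure D1:**
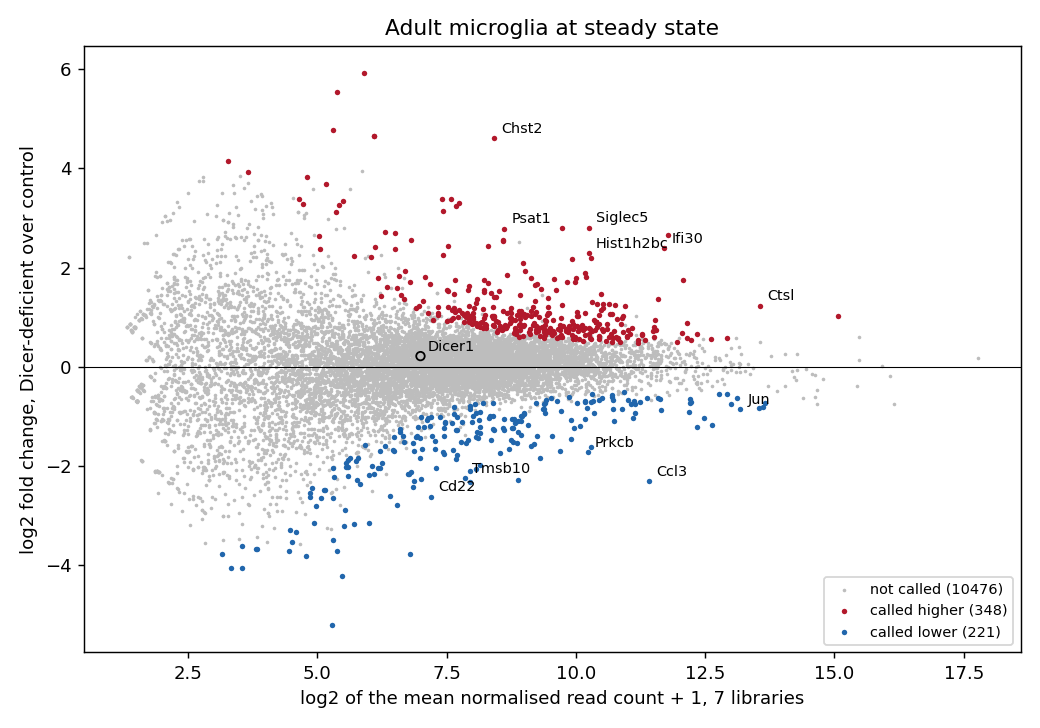
Log2 fold change (Dicer-deficient over control, y axis) against the log2 mean normalised read count of the 7 libraries (x axis) for 11045 tested genes, with the 348 genes called higher in red and the 221 called lower in blue. Dicer1 (open circle) sits near 0, while Chst2, Siglec5 and Ifi30 stand above and Cd22, Tmsb10 and Ccl3 below.

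The plot of fold change against level shows that the called genes spread over the whole range of expression above the lowest values, with Ctsl and Jun among the called genes of high level.

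Among the genes that make and use microRNAs, 3 of 27 tested were called higher and 0 lower, with a median log2 fold change of 0.10, beside 3.15% and 2.00% called and a median of 0.05 over all genes. The 3 were Tnrc6a and Tnrc6b, the GW182 scaffolds that link Argonaute to deadenylases, and Zcchc11 (TUT4), a terminal uridylyltransferase that acts on let-7 precursors. Tnrc6a read 1176, 1155 and 2174 in Dicer-deficient libraries, against 851, 630.0, 698 and 647 in controls. The groups did not overlap, with Dicer_3 the highest (log2 fold change 1.03 ± 0.21 (SE), adjusted p = 0.00604). Tnrc6b read 1397, 1158 and 1493 in Dicer-deficient libraries, against 777, 726, 908 and 637 in controls, again with every Dicer-deficient library above every control (log2 fold change 0.83 ± 0.16 (SE), adjusted p = 0.00586). Zcchc11 read 614, 556 and 616 in Dicer-deficient libraries, against 371, 395, 365 and 303 in controls (log2 fold change 0.74 ± 0.18 (SE), adjusted p = 0.0193), and was not called without Dicer_1 or without WT_4 (adjusted p 0.0622 to 0.0842). Argonaute 2 (Ago2), the endonuclease that carries the guide, had 23.2 to 69.5 normalised reads in Dicer-deficient libraries and 59.8 to 150.4 in controls, which overlap (adjusted p = 0.156).

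Curated targets of 3 microRNAs studied in myeloid cells were set beside these, and the mature sequences are shown because the seed classes below rest on them. The libraries hold polyadenylated RNA, so the microRNAs themselves were not measured. Sequences are from RefSeq (GRCm38.p6), 5′ to 3′, with the seed (bases 2 to 8) in capitals. They lie at chr13:48538239-48538260 on the minus strand (let-7a-5p, from Mirlet7a-1), chr16:84714143-84714165 on the plus strand (miR-155-5p), chr11:43374435-43374456 on the minus strand (miR-146a-5p) and chr11:87756903-87756925 on the plus strand (miR-142a-3p, a microRNA of blood cells).
let-7a-5p: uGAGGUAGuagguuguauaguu
miR-155-5p: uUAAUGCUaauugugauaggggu
miR-146a-5p: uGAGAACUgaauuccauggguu
miR-142a-3p: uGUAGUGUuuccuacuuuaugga

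Of the 27 tested let-7 targets, 3 were called higher and 1 lower, beside 3.15% and 2.00% of all genes. Their median log2 fold change was 0.40 (0.22 with DESeq2), beside 0.05 over all genes, and 23 were above 0. Igf1r, the receptor for insulin-like growth factor 1, read 788, 645 and 1122 in Dicer-deficient libraries, against 223, 383, 532 and 483 in controls. All Dicer-deficient libraries were above all controls (log2 fold change 1.11 ± 0.26 (SE), adjusted p = 0.0174), although the call was lost without Dicer_3 (adjusted p = 0.0724). Insr, the insulin receptor, read 412, 444 and 292 in Dicer-deficient libraries, against 163, 167, 226 and 272 in controls (log2 fold change 0.89 ± 0.24 (SE), adjusted p = 0.0402), and its call was lost without any 1 of Dicer_1, Dicer_2, WT_1, WT_2 and WT_3 (adjusted p 0.0721 to 0.142). Tlr4, the receptor for bacterial lipopolysaccharide, had 764 to 825 in Dicer-deficient libraries, against 439 to 564 in controls (log2 fold change 0.62 ± 0.16 (SE), adjusted p = 0.0317), and was not called without any 1 of Dicer_1, Dicer_2, Dicer_3, WT_1, WT_2, WT_3 and WT_4 (adjusted p 0.0506 to 0.0927). The member that fell was Myc, a growth-promoting transcription factor, which read 80.3, 135 and 139 in Dicer-deficient libraries, against 243, 267, 435 and 375 in controls (log2 fold change -1.47 ± 0.28 (SE), adjusted p = 0.00392), with no overlap and with the call held in all 7 fits that left out 1 library.

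The let-7 seed matches in the 3′ UTRs of Igf1r, on chromosome 7, and Insr, on chromosome 8, are shown because both genes were called. The match (CTACCTC, the reverse complement of the seed) is in capitals, with the bases around it, from the reference transcripts of GRCm38. It lies at UTR bases 2724 to 2730 and 6830 to 6836 of the 7267-base UTR of Igf1r, and at 2464 to 2470 of the 4747-base UTR of Insr. The 3′ UTRs of Myc and Tlr4 held no match.
Igf1r, site nearer the stop codon: tttcaaacatttatCTACCTCa
Igf1r, site nearer the poly(A) end: ttgccagagttcatCTACCTCt
Insr: cttctcagtacagtCTACCTCa

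Of 26 tested miR-155 targets 2 were called higher and 1 lower, with a median of 0.01. Of 17 miR-146a targets 1 was called higher and 0 lower, with a median of 0.20. Over all genes 3.15% were called higher and 2.00% lower, with a median of 0.05. Il13ra1, a subunit of the interleukin 13 receptor, read 1228, 965 and 829.7 in Dicer-deficient libraries, against 648, 542, 354 and 395 in controls (log2 fold change 1.08 ± 0.21 (SE), adjusted p = 0.00565), with no overlap. Its reference 3′ UTR held 0 matches to the miR-155 seed. Tle4, a transcriptional co-repressor, had 475 to 524 in Dicer-deficient libraries, against 257 to 359 in controls (log2 fold change 0.75 ± 0.19 (SE), adjusted p = 0.0274), and its call was lost without any 1 of Dicer_1, Dicer_3, WT_1, WT_2 and WT_3 (adjusted p 0.0508 to 0.0913). Numb, an inhibitor of Notch signalling, read 2386, 2035 and 2985 in Dicer-deficient libraries, against 1272, 1396, 1337 and 1032 in controls (log2 fold change 0.96 ± 0.16 (SE), adjusted p = 0.00187). Numb was higher in each Dicer-deficient library than in any control, and its UTR held 2 matches to the miR-146a seed.

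Seed classes over the whole transcriptome differed little. A 3′ UTR was found for 10990 of the 11045 tested genes. The 1055 genes with a let-7 match had a median log2 fold change of 0.12, beside 0.04 for genes without one. The 910 genes with a miR-155 match had a median of 0.12, beside 0.05 without. Of the genes with a miR-155 match 3.96% were called higher and 0.769% lower, beside 3.06% and 2.12% without. Of the 18 microRNAs searched, miR-142a-3p showed the highest share of called-higher genes, singled out after its values were seen: 45 of 686 genes with a match (6.56%), beside 2.90% of genes without. UTR length moved with these values. Genes with a let-7 match had a median UTR of 2122 bases, beside 923 without, and the median log2 fold change was 0.04, 0.00, 0.05 and 0.11 in 4 equal classes of genes from shortest to longest UTR. Among genes in the longest of these 4 classes, the let-7 medians were 0.14 with and 0.10 without a match. Of these genes 2.89% with a match and 3.83% without were called higher. In the same genes the shares called higher were 3.93% and 3.56% for miR-155 and 5.51% and 3.33% for miR-142a. With seed bases 2 to 7 followed by A as the match, the miR-142a shares were 4.83% and 2.99%, below the 4.86% of miR-15a and 4.85% of miR-30a, and among genes with long UTRs they were 3.77% and 3.61%. These classes are a description and carry no test.

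The seed match of miR-142a-3p (ACACTAC) is shown for 2 of the most raised genes, Chst2 on chromosome 9 and Hsf2bp on chromosome 17, and the let-7 match for Hsf2bp and Hlf, on chromosome 11. The matches, in capitals, lie at UTR bases 835 to 841 (Chst2), 742 to 748 and 154 to 160 (Hsf2bp, miR-142a and let-7) and 2760 to 2766 (Hlf). Of the other genes among the 15 most raised, Niacr1, Prkcq, Perp, Siglec5, Nid2, Psat1, Upk1b and Kcnn4 held no match to let-7, miR-155, miR-146a or miR-142a. Nor did Fcrl1, Hist1h2be and Hist1h2bc, and no 3′ UTR was found for Ifi30. Over all genes with a 3′ UTR, 9.6% held a let-7 match and 6.24% a miR-142a match.
Chst2, miR-142a: agaagaaagagcacACACTACt
Hsf2bp, miR-142a: ttcatgcagccatgACACTACg
Hsf2bp, let-7: gatgggtcagcatcCTACCTCt
Hlf, let-7: ggtttgtagaaaacCTACCTCa

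The 15 highest fold changes, among genes whose groups did not overlap and whose mean was at least the median of the tested genes, ran from 2.29 to 4.60 on the log2 scale. The highest was Chst2, a sulfotransferase that adds sulfate to N-acetylglucosamine of glycans. It read 1195, 61.8 and 1029 in Dicer-deficient libraries, against 9.90, 35.9, 5.37 and 35.9 in controls. Dicer_1 and Dicer_3 were far above every control, while Dicer_2 was less than 2-fold above the highest ones (log2 fold change 4.60 ± 0.83 (SE), adjusted p = 0.00293). Without Dicer_2 its log2 fold change was 5.98, and it was 3.86 without Dicer_1 and 3.97 without Dicer_3. Niacr1, the nicotinic acid and ketone body receptor, read 412, 124 and 538 in Dicer-deficient libraries, against 19.8, 27.9, 26.9 and 41.1 in controls (log2 fold change 3.39 ± 0.47 (SE), adjusted p = 0.000297). Prkcq, protein kinase C theta, read 539, 143 and 505 in Dicer-deficient libraries, against 24.7, 71.8, 10.7 and 51.4 in controls (log2 fold change 3.38 ± 0.57 (SE), adjusted p = 0.00178). In both, Dicer_2 was the lowest Dicer-deficient library and still above all controls, and leaving it out gave 4.03 for Niacr1 and 4.00 for Prkcq.

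Perp, a p53-induced membrane protein of desmosomes, read 710.0, 88.8 and 556 in Dicer-deficient libraries, against 19.8, 43.9, 26.9 and 46.2 in controls (log2 fold change 3.31 ± 0.56 (SE), adjusted p = 0.00193). Psat1, an enzyme of serine synthesis, read 1337, 205 and 816 in Dicer-deficient libraries, against 79.2, 159.5, 80.6 and 56.5 in controls (log2 fold change 2.79 ± 0.47 (SE), adjusted p = 0.00182). Hsf2bp, a partner of heat shock factor 2 and of the BRCA2 pathway in meiosis, read 1283, 205 and 811 in Dicer-deficient libraries, against 89.1, 136, 91.3 and 92.4 in controls (log2 fold change 2.56 ± 0.43 (SE), adjusted p = 0.00170). In these genes too Dicer_2 lay between the controls and the other Dicer-deficient libraries. Without it the log2 fold changes were 4.24 for Perp, 3.57 for Psat1 and 3.33 for Hsf2bp. Dicer_2 was the lowest of the 3 Dicer-deficient libraries for 12 of the 15 highest genes and for 206 of the 348 genes called higher (59.2%), beside 35.3% of all tested genes. The part of depth in this was not tested: Dicer_2 held 1343146 reads, between Dicer_1 with 1991621 and Dicer_3 with 1058767.

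Dicer_2 was likewise the lowest Dicer-deficient library for Nid2, Ifi30, Siglec5, Upk1b and Kcnn4, but not for Hlf and Fcrl1. Hlf, a PAR-family transcription factor of circadian output, read 332, 348 and 575 in Dicer-deficient libraries, against 39.6, 55.8, 53.7 and 25.7 in controls (log2 fold change 3.24 ± 0.35 (SE), adjusted p = 2.92e-05). Nid2, nidogen 2 of basement membranes, read 1982, 1348 and 1632 in Dicer-deficient libraries, against 208, 291, 188 and 262 in controls (log2 fold change 2.80 ± 0.20 (SE), adjusted p = 2.87e-07). Both were several-fold higher in each Dicer-deficient library than in any control. Ifi30, the lysosomal thiol reductase GILT that unfolds antigens for class II presentation, read 7481, 4919 and 6355 in Dicer-deficient libraries, against 1173, 1264, 1009.6 and 1258 in controls (log2 fold change 2.39 ± 0.16 (SE), adjusted p = 2.58e-07), the smallest adjusted p among the genes named here. Siglec5, a sialic acid-binding lectin, read 4003, 1336 and 1905 in Dicer-deficient libraries, against 391, 383, 231 and 267 in controls (log2 fold change 2.80 ± 0.28 (SE), adjusted p = 1.65e-05), with Dicer_1 the highest. Upk1b, a tetraspanin found in microglial signatures, read 8797, 3251 and 8529 in Dicer-deficient libraries, against 1237, 1379.6, 881 and 642 in controls (log2 fold change 2.66 ± 0.30 (SE), adjusted p = 4.16e-05), and Kcnn4, a calcium-activated potassium channel, 622, 147 and 292 in Dicer-deficient libraries, against 69.3, 83.7, 42.96 and 35.9 in controls (log2 fold change 2.43 ± 0.43 (SE), adjusted p = 0.00272). Groups did not overlap in any of them. Fcrl1, an Fc receptor-like protein, read 614, 618 and 756 in Dicer-deficient libraries, against 29.7, 59.8, 285 and 324 in controls (log2 fold change 2.53 ± 0.57 (SE), adjusted p = 0.0145). Its controls fell into a low pair, WT_1 and WT_2, and a higher pair, WT_3 and WT_4, and it was not called without WT_2 (adjusted p = 0.0568) or with DESeq2 (log2 fold change 1.87, adjusted p = 0.203).

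The 15 lowest fold changes under the same rule ran from -2.62 to -1.73. Cd22, an inhibitory lectin that binds sialic acid, fell to 41.5, 27.03 and 41.7 in Dicer-deficient libraries, against 188, 219, 226 and 282 in controls (log2 fold change -2.62 ± 0.32 (SE), adjusted p = 0.000103). H2-Ob, the beta chain of the class II peptide-loading modulator DO, fell to 80.3, 57.9 and 83.4 in Dicer-deficient libraries, against 460.3, 375, 392 and 272 in controls (log2 fold change -2.32 ± 0.26 (SE), adjusted p = 4.43e-05). In both genes the highest Dicer-deficient library stayed below the lowest control by more than 2-fold. The chemokine Ccl3 fell to 731, 653 and 1187 in Dicer-deficient libraries, against 3697, 4881, 3619.6 and 4329 in controls (log2 fold change -2.31 ± 0.19 (SE), adjusted p = 1.54e-06), and Tnfsf12 (TWEAK), a ligand of the tumour necrosis factor family, to 181, 209 and 78.8 in Dicer-deficient libraries, against 624, 821, 649.8 and 745 in controls (log2 fold change -2.29 ± 0.27 (SE), adjusted p = 6.93e-05). Tmsb10, which binds monomeric actin, fell to 64.8, 69.5 and 83.4 in Dicer-deficient libraries, against 431, 351, 322 and 298 in controls (log2 fold change -2.25 ± 0.25 (SE), adjusted p = 3.91e-05). The spread within each group was small beside these differences.

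Chst7, a sulfotransferase with the same glycan substrate class as Chst2, moved the other way and fell to 77.7, 65.6 and 139 in Dicer-deficient libraries, against 287, 618, 392 and 293 in controls (log2 fold change -2.07 ± 0.31 (SE), adjusted p = 0.000718). Prkcb, protein kinase C beta, fell to 461, 363 and 788 in Dicer-deficient libraries, against 1737, 1396, 1783 and 1869 in controls (log2 fold change -1.73 ± 0.21 (SE), adjusted p = 0.000103), while Prkcq and Prkce rose. Within both enzyme families, then, named members moved in opposite directions, with no overlap of groups in any of them. Cd83, an immunoglobulin-family surface protein, fell to 218, 266 and 273 in Dicer-deficient libraries, against 1158, 893, 661 and 960.4 in controls (log2 fold change -1.84 ± 0.20 (SE), adjusted p = 2.92e-05). Anxa5, which binds exposed phosphatidylserine, fell to 80.3, 54.1 and 139 in Dicer-deficient libraries, against 228, 283, 328 and 344 in controls (log2 fold change -1.78 ± 0.31 (SE), adjusted p = 0.00214). Gabbr1, a subunit of the GABA-B receptor, fell to 109, 224 and 158 in Dicer-deficient libraries, against 505, 558, 478 and 559.8 in controls (log2 fold change -1.74 ± 0.23 (SE), adjusted p = 0.000244). None of these calls was lost when 1 library was left out.

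Cd79b, a subunit of the B-cell receptor, fell to 46.6, 81.1 and 134 in Dicer-deficient libraries, against 465, 403, 403 and 190.0 in controls (log2 fold change -2.10 ± 0.35 (SE), adjusted p = 0.00182), with Dicer_3 the highest Dicer-deficient and WT_4 the lowest control library. Cd79a, its partner, read 0 to 2.59 in Dicer-deficient libraries and 0 to 12.0 in controls, and Ms4a1 (CD20) was listed at 0 in all. Fblim1, which links filamin to cell adhesions, had 83.4 to 155 in Dicer-deficient libraries, against 354 to 450.4 in controls (log2 fold change -1.98 ± 0.25 (SE), adjusted p = 0.000157), and Oaf had 65.6 to 111 in Dicer-deficient libraries, against 255 to 333 in controls (log2 fold change -1.86 ± 0.27 (SE), adjusted p = 0.000434). Both were called in all 7 fits that left out 1 library. Mmp2, a matrix metalloproteinase, had 30.9 to 148 in Dicer-deficient libraries, against 185 to 290.0 in controls (log2 fold change -1.76 ± 0.40 (SE), adjusted p = 0.0144), and was not called without WT_1 or without WT_3 (adjusted p 0.0534 to 0.0663). Ildr2 read 85.5, 11.6 and 125 in Dicer-deficient libraries, against 282, 136, 231 and 221 in controls (log2 fold change -2.03 ± 0.56 (SE), adjusted p = 0.0443). It rests on Dicer_2, without which the log2 fold change was -1.02, and it was not called without any 1 of Dicer_2, WT_1, WT_2, WT_3 and WT_4 (adjusted p 0.0584 to 0.132).

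**Figure D2:**
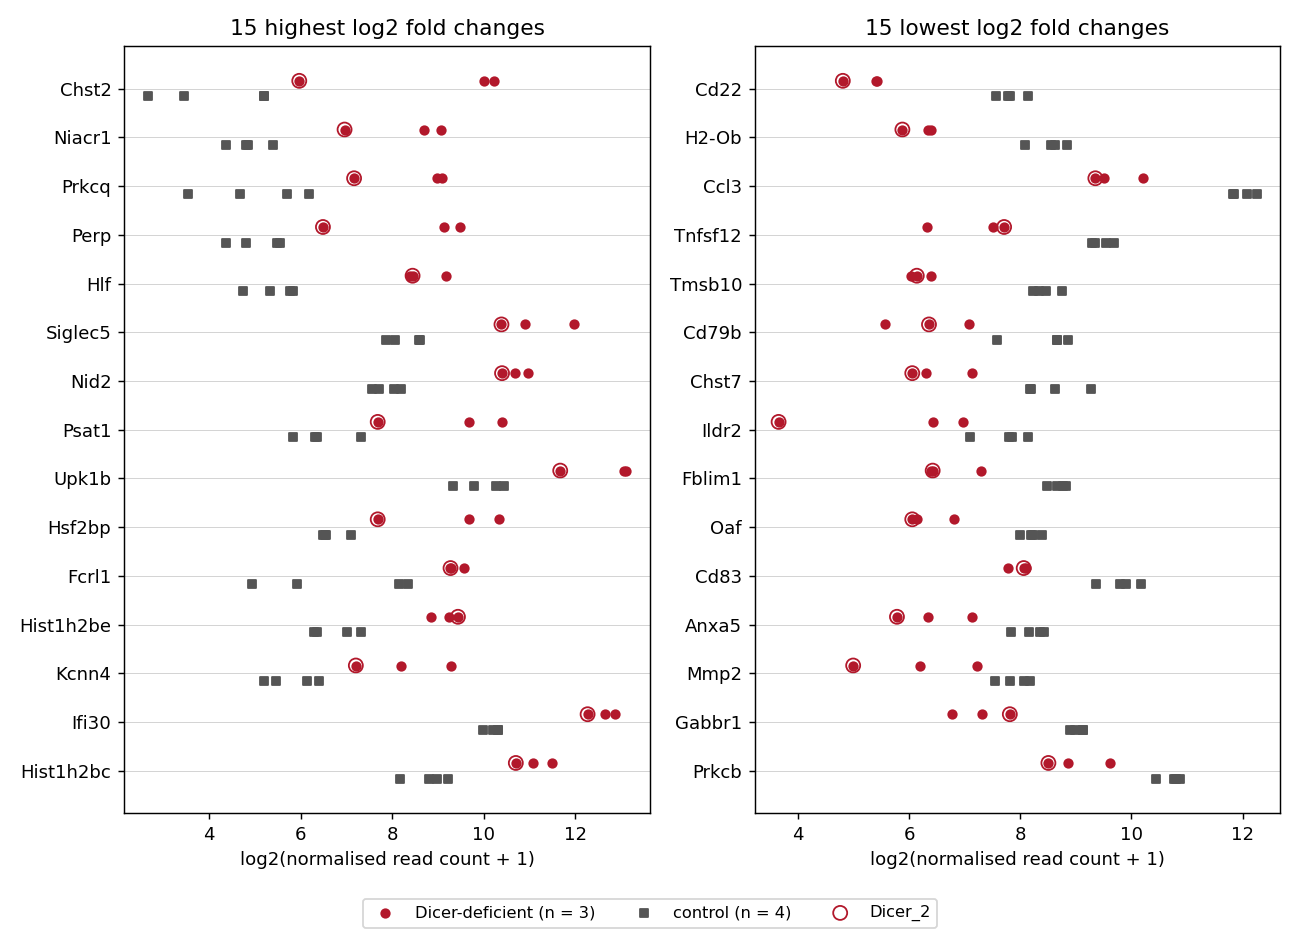
Log2(normalised read count + 1) of each library (x axis) for the 15 highest (left) and 15 lowest (right) fold changes, with Dicer-deficient libraries as red circles, Dicer_2 ringed, and controls as grey squares. The groups do not overlap for any of these genes, by the rule that chose them, and Dicer_2 is the lowest red circle in 12 of the 15 genes on the left.

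The plot of single libraries shows the ringed library closest to the controls for Chst2, Perp, Psat1 and Hsf2bp, and no such order for Hist1h2be.

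The replication-dependent histones, which package newly made DNA, moved together. Of 37 tested, 17 were called higher and 0 lower, 36 had a positive fold change, and the median was 1.66 on the log2 scale, beside 3.15% called higher and a median of 0.05 over all genes. Summed over the list, the normalised read count was 10919 to 11319 in Dicer-deficient libraries and 2557.5 to 3856 in controls, with no overlap. Hist1h2ac, an H2A gene, read 855, 965 and 844 in Dicer-deficient libraries, against 223, 207, 242 and 164 in controls (log2 fold change 2.09 ± 0.19 (SE), adjusted p = 7.00e-06). Hist1h2be, an H2B gene, read 604, 691 and 459 in Dicer-deficient libraries, against 158, 128, 80.6 and 77.03 in controls (log2 fold change 2.43 ± 0.28 (SE), adjusted p = 5.16e-05), and Hist1h1c, a linker histone, 1866, 1622 and 1562 in Dicer-deficient libraries, against 584, 570.2, 467 and 437 in controls (log2 fold change 1.72 ± 0.16 (SE), adjusted p = 8.44e-06). In all 3 the lowest Dicer-deficient library was above the highest control by more than 2-fold. Hist1h2bc, another H2B gene, read 2153, 1660.3 and 2865 in Dicer-deficient libraries, against 594, 506, 446 and 288 in controls (log2 fold change 2.29 ± 0.23 (SE), adjusted p = 1.43e-05), and Hist2h3c1, an H3 gene, 301, 212 and 125 in Dicer-deficient libraries, against 24.7, 59.8, 26.9 and 30.8 in controls (log2 fold change 2.55 ± 0.43 (SE), adjusted p = 0.00182). Hist1h2bq and Hist1h2br carried the same values in every library, and Hist2h2aa1 and Hist2h2aa2 nearly the same, so reads of such near-identical genes cannot be assigned to 1 of them. Of the 17, 11 were called in all 7 fits that left out 1 library. The other 6 were Hist1h2ak, Hist1h2bq, Hist1h2br, Hist1h4k, Hist2h2ac and Hist2h3c2. Without Dicer_1, 11 members were called, the lowest number over the alternatives. Within the libraries low and high in Y-linked transcripts the list's median difference was 1.93 and 1.65.

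Replication histone messengers normally end in a stem-loop without a poly(A) tail, so that capture by oligo(dT), as used here, reads their polyadenylated forms. H2afz and H3f3b, histone variants outside the replication list, were not called, and other variants are not given here. H2afz read 915, 938 and 626 in Dicer-deficient libraries, against 747, 809, 719.6 and 668 in controls (adjusted p = 0.723), and H3f3b 4724, 4873 and 5043 in Dicer-deficient libraries, against 5336, 6874, 5043 and 5069 in controls (adjusted p = 0.574), with overlapping groups for both. Slbp, which binds the stem-loop, read 303, 278 and 301 in Dicer-deficient libraries, against 153, 199, 247 and 149 in controls, without overlap and without a call (log2 fold change 0.68 ± 0.24, adjusted p = 0.116). These 3 genes were chosen after their values were seen. Cell-cycle genes had 0 of 53 called higher and 1 lower, Mcm3 of the replicative helicase (125 to 275 in Dicer-deficient libraries, against 313 to 359 in controls, log2 fold change -0.94 ± 0.25 (SE), adjusted p = 0.0402), which was not called without any 1 of Dicer_2, Dicer_3, WT_1, WT_2, WT_3 and WT_4 (adjusted p 0.0809 to 0.139). Their median log2 fold change was 0.67, their sum 4745 to 8320.1 in Dicer-deficient libraries and 4717 to 5816 in controls, and without 1 library up to 3 were called higher. Repair genes had 1 of 54 called higher, Hsf2bp, and a median of -0.08. Over all tested genes 3.15% were called higher and 2.00% lower.

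The 250 bases before the start of Hist1h2ac (H2ac6 in RefSeq, chr13:23683960-23684209, minus strand, GRCm38.p6) and of Hist1h2be (H2bc6, chr13:23585971-23586220, minus strand) are shown because these genes moved together with others of their cluster. Capitals mark motifs searched on either strand: the TATA box as TATAAA, the box of histone and other promoters spelled CCAAT, and the octamer core spelled TTTGCAT. Hist1h2ac held 1 TATAAA, 3 CCAAT and 1 TTTGCAT, and Hist1h2be 3 CCAAT and 1 TTTGCAT. RefSeq gave 2 windows for Hist1h2be, and the one with the most motif letters is shown, so its count was picked for motifs.
Hist1h2ac: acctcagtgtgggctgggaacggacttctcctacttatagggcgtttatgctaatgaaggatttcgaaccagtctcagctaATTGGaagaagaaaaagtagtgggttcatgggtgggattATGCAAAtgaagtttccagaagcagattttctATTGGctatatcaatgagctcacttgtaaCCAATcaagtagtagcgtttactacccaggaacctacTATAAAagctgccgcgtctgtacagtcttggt
Hist1h2be: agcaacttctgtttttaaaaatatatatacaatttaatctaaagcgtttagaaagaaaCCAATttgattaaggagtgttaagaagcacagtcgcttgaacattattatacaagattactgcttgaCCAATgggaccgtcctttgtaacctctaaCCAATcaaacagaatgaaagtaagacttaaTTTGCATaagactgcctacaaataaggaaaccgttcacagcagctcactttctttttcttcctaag

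In 300-base RefSeq promoter windows (250 before to 50 after the start), TATAAA was present in 54.5% of 33 replication histones with a window and in 8.67% of 8939 tested genes. CCAAT was present in 81.8% against 43.4%, and TTTGCAT in 30.3% against 4.17%. The 16 called members with a window held them in 56.2%, 87.5% and 25%, close to the whole list. These shares describe letters in the windows.

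Immediate early genes, whose transcripts rise within minutes of stimulation or of tissue handling, moved the other way. Of 31 tested, 14 were called lower and 0 higher, 26 had a negative fold change, and the median was -0.62, beside 2.00% called lower over all genes. The summed list was 51134 to 58529 in Dicer-deficient libraries and 73205 to 103254 in controls. Egr1, a zinc finger factor, fell to 3394, 3545 and 3889 in Dicer-deficient libraries, against 7004, 11153, 8625 and 6553 in controls (log2 fold change -1.18 ± 0.18 (SE), adjusted p = 0.000714). Atf3, a stress-induced factor, fell to 378, 309 and 440.4 in Dicer-deficient libraries, against 777, 1428, 687 and 1202 in controls (log2 fold change -1.39 ± 0.23 (SE), adjusted p = 0.00161), and Jun, a subunit of AP-1, to 5853, 6348 and 6846 in Dicer-deficient libraries, against 11572, 13055, 11374 and 10014 in controls (log2 fold change -0.85 ± 0.15 (SE), adjusted p = 0.00281). WT_2 was the highest control in all 3, and no Dicer-deficient library reached the lowest control. Junb, another AP-1 subunit, fell to 3477, 3857 and 3277 in Dicer-deficient libraries, against 5593, 10080.2, 7266 and 6594 in controls (log2 fold change -1.03 ± 0.18 (SE), adjusted p = 0.00217), and Dusp2, a nuclear phosphatase of MAP kinases, to 49.2, 15.4 and 64.9 in Dicer-deficient libraries, against 223, 239, 96.7 and 205 in controls (log2 fold change -2.26 ± 0.46 (SE), adjusted p = 0.00718). Leaving out Dicer_2 gave -1.66 for Dusp2. Fos itself read 6081, 3981 and 7861 in Dicer-deficient libraries, against 8157, 12612, 8786 and 9619 in controls (log2 fold change -0.75 ± 0.21 (SE), adjusted p = 0.0464), without overlap, but was not called without any 1 of Dicer_1, Dicer_2, WT_1, WT_2, WT_3 and WT_4 (adjusted p 0.0625 to 0.147). In all, 9 members kept their call in all 7 fits that left out 1 library. The list's median was -0.66 within the libraries low and -0.56 within those high in Y-linked transcripts. Between 9 (without WT_4) and 17 members were called lower over all alternatives. How long each sample was handled before lysis is not given in the sources used here, and its part in these values was not tested. Heat shock genes, another set that responds to handling, had 0 of 22 called by limma and a median of 0.27, and summed to 13998 to 23854 in Dicer-deficient libraries and 10891 to 18589 in controls, which overlap. Of that list 7 members had an unadjusted p under 0.05, and up to 2 were called under the other settings.

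**Figure D3:**
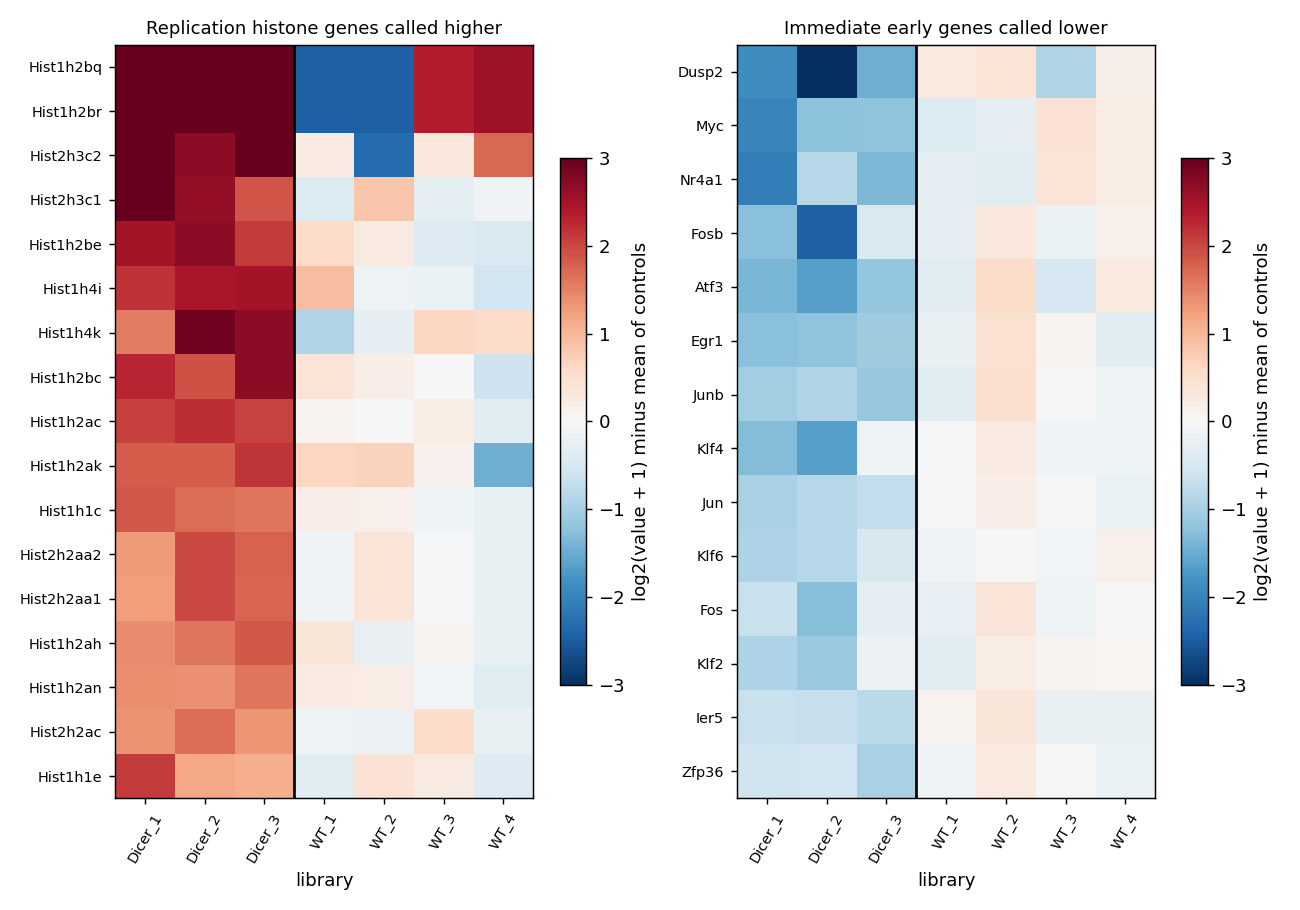
Heat map of log2(value + 1) minus the mean of the controls for the 17 replication histones called higher (left) and the 14 immediate early genes called lower (right), with libraries in columns and the Dicer-deficient ones left of the line. Colours stop at -3 and 3. Most histones are red in all Dicer-deficient columns, and the early genes blue, most weakly in Dicer_3 for Klf4, Klf2 and Fos.

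The heat map of both lists shows members of each moving in the same columns, with Hist1h2bq and Hist1h2br split among the controls, at 0 in WT_1 and WT_2.

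Of 44 tested genes of the resting microglial state 3 were called higher and 2 lower (11.4%), beside 5.15% of all genes, with a median of -0.05. Sparc, a secreted matrix-binding protein, read 50429, 49605 and 44888 in Dicer-deficient libraries, against 21105, 30300.4, 24424 and 20619 in controls (log2 fold change 1.02 ± 0.20 (SE), adjusted p = 0.00514). Gpr84, a receptor for medium-chain fatty acids, read 2218, 1954 and 2206 in Dicer-deficient libraries, against 1148, 1077, 516 and 1191 in controls (log2 fold change 1.18 ± 0.23 (SE), adjusted p = 0.00514), with WT_3 far below the other controls. Upk1b, described above, was the third gene called higher. Bin1, a membrane-curving protein, fell to 6721, 6927 and 6545 in Dicer-deficient libraries, against 9865, 12572, 10521 and 9254 in controls (log2 fold change -0.64 ± 0.15 (SE), adjusted p = 0.0198), and was not called without any 1 of Dicer_1, WT_2 and WT_3 (adjusted p 0.0506 to 0.0665). Ecscr, a surface regulator of cell movement, fell to 764, 1521 and 932 in Dicer-deficient libraries, against 2391, 2301, 2062 and 2029 in controls (log2 fold change -1.09 ± 0.19 (SE), adjusted p = 0.00241). Groups did not overlap for any of the 5.

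Genes that amoeboid and disease-associated microglia induce had 2 of 33 called higher and 4 lower, beside 3.15% and 2.00% of all genes. Their median was -0.42, and 25 were negative. Ctsl, a lysosomal cysteine protease, read 22877, 17109 and 14359.9 in Dicer-deficient libraries, against 8504, 8888, 6681 and 6497 in controls (log2 fold change 1.23 ± 0.19 (SE), adjusted p = 0.000720), more than 2-fold above the mean of the controls in Dicer_1 and Dicer_2. Postn, a matrix protein, had 190.0 to 209 in Dicer-deficient libraries, against 61.6 to 98.99 in controls (log2 fold change 1.33 ± 0.30 (SE), adjusted p = 0.0124), and was not called without Dicer_1 (adjusted p = 0.0562). On the lower side stood Ccl6, a chemokine, which fell to 205, 286 and 278 in Dicer-deficient libraries, against 970.1, 873, 784 and 529 in controls (log2 fold change -1.60 ± 0.21 (SE), adjusted p = 0.000248). Timp2, an inhibitor of metalloproteinases, had 1034 to 1896 in Dicer-deficient libraries, against 2306 to 3389 in controls (log2 fold change -0.93 ± 0.19 (SE), adjusted p = 0.00718). Itgax (CD11c), an integrin of activated microglia, read 31.1, 42.5 and 4.64 in Dicer-deficient libraries, against 153, 83.7, 134 and 195 in controls (log2 fold change -2.78 ± 0.59 (SE), adjusted p = 0.00965), was not called without WT_4 (adjusted p = 0.0507), and stood at a log2 fold change of -1.87 without Dicer_3. Ftl1, the ferritin light chain, had 710.5 to 1743 in Dicer-deficient libraries, against 1681 to 2249 in controls, which overlap (log2 fold change -0.86 ± 0.22 (SE), adjusted p = 0.0317), and was not called without any 1 of Dicer_1, Dicer_2, WT_1, WT_2, WT_3 and WT_4 (adjusted p 0.0539 to 0.111). The list's median difference was 0.21 within the libraries low in Y-linked transcripts and -0.54 within those high in them, so its sign differed between these subsets.

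Of 50 transcription factors of myeloid identity 3 were called higher and 5 lower, beside 3.15% and 2.00% of all tested genes. None of the 8 calls held in all 7 fits that left out 1 library. Batf3, a dendritic-cell factor, had 148 to 247 in Dicer-deficient libraries, against 313 to 574 in controls (log2 fold change -1.04 ± 0.24 (SE), adjusted p = 0.0174), and was not called without any 1 of Dicer_3, WT_1 and WT_3 (adjusted p 0.052 to 0.0704). Batf, its relative, had 27.8 to 44.05 in Dicer-deficient libraries, against 89.1 to 149 in controls (log2 fold change -1.67 ± 0.38 (SE), adjusted p = 0.0145), and was not called without WT_3 or without WT_4 (adjusted p 0.0524 to 0.0554). Gata2, a factor of early haematopoiesis and mast cells, read 163, 3.86 and 97.3 in Dicer-deficient libraries, against 4.95, 0, 0 and 0 in controls. It was thus present in Dicer_1 and Dicer_3, and at the level of 1 read or less in Dicer_2 and all controls, and its adjusted p was 0.0300. The call was lost without any 1 of Dicer_1, Dicer_3, WT_2, WT_3 and WT_4 (adjusted p 0.0692 to 0.254).

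Of 31 cytokines and chemokines 2 were called higher and 6 lower, with a median of -0.20, beside 3.15% and 2.00% of all tested genes. Ccl4, like Ccl3 a chemokine, was also called lower and read 288, 239 and 621 in Dicer-deficient libraries, against 1044, 1396, 800.2 and 1438 in controls (log2 fold change -1.70 ± 0.27 (SE), adjusted p = 0.00124). Cxcl16, a transmembrane chemokine, fell to 264, 147 and 158 in Dicer-deficient libraries, against 629, 435, 344 and 390.3 in controls (log2 fold change -1.25 ± 0.25 (SE), adjusted p = 0.00654). Osm, oncostatin M of the interleukin 6 family, fell to 49.2, 34.8 and 64.9 in Dicer-deficient libraries, against 124, 139.6, 145 and 252 in controls (log2 fold change -1.70 ± 0.36 (SE), adjusted p = 0.00965). In these 3 every Dicer-deficient library was below every control, with Dicer_3 the highest for Ccl4 and Osm. Il16, a chemoattractant for CD4 cells, was called higher with 2322 to 2795 in Dicer-deficient libraries, against 1611 to 1727 in controls (log2 fold change 0.61 ± 0.14 (SE), adjusted p = 0.0142), but not with the term for Y-linked classes (adjusted p = 0.0576). The sum over the list was 8448 to 10786 in Dicer-deficient libraries and 12030 to 14973 in controls. Of 23 tumour necrosis factor ligands and receptors 0 were called higher and 2 lower, Tnfsf12 and Tnfsf13b (BAFF). Tnfsf13b had 42.5 to 97.3 in Dicer-deficient libraries, against 99.7 to 317 in controls (log2 fold change -1.39 ± 0.39 (SE), adjusted p = 0.0464), and was not called without any 1 of Dicer_1, Dicer_2, WT_1, WT_3 and WT_4 (adjusted p 0.0594 to 0.153).

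Toll-like receptor and NF-kB genes had 3 of 41 called higher and 2 lower, beside 3.15% and 2.00% of all tested genes. Their median was -0.08, and no call held in all 7 fits without 1 library. Tirap, an adaptor of Tlr4, had 656 to 902 in Dicer-deficient libraries, against 367 to 514 in controls (log2 fold change 0.81 ± 0.18 (SE), adjusted p = 0.0133), and was not called without Dicer_1 (adjusted p = 0.081). Tlr7, a receptor for single-stranded RNA, had 1256 to 1931 in Dicer-deficient libraries, against 2289 to 2734 in controls (log2 fold change -0.68 ± 0.16 (SE), adjusted p = 0.0177), and was not called without any 1 of Dicer_1, Dicer_3, WT_1 and WT_3 (adjusted p 0.0523 to 0.0773). The receptors Tlr4 and Tlr7 thus differed in direction. Nfkb1 had 1103 to 1311 in Dicer-deficient libraries, against 757 to 1001 in controls (log2 fold change 0.57 ± 0.16 (SE), adjusted p = 0.0450), and was not called without any 1 of Dicer_1, Dicer_2, WT_1, WT_3 and WT_4 (adjusted p 0.078 to 0.172). Nfkbiz, an inducible co-regulator, had 64.8 to 73.4 in Dicer-deficient libraries, against 145 to 178 in controls (log2 fold change -1.21 ± 0.29 (SE), adjusted p = 0.0199), and was not called without any 1 of Dicer_1, WT_1 and WT_4 (adjusted p 0.0564 to 0.0677).

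Interferon-stimulated genes had 1 of 65 called higher and 2 lower, shares near those of all genes, although 51 of 65 had a negative fold change and the median was -0.52. Gbp7, an interferon-inducible GTPase, was the higher one and read 2513, 2085 and 2322 in Dicer-deficient libraries, against 1029.5, 993, 1037 and 1387 in controls (log2 fold change 1.06 ± 0.16 (SE), adjusted p = 0.000588). Ly6e, a membrane-anchored inhibitor of virus entry, had 8393 to 9792 in Dicer-deficient libraries, against 12027 to 19764 in controls (log2 fold change -0.73 ± 0.18 (SE), adjusted p = 0.0236), and was not called without any 1 of Dicer_1, WT_1, WT_2 and WT_3 (adjusted p 0.0549 to 0.0848). Phf11b had 38.9 to 88.1 in Dicer-deficient libraries, against 99.7 to 312 in controls (log2 fold change -1.66 ± 0.41 (SE), adjusted p = 0.0245), and was not called without any 1 of Dicer_1, WT_1 and WT_4 (adjusted p 0.0827 to 0.0982). The list's median difference was -0.18 within the libraries low in Y-linked transcripts and -1.15 within those high in them, where WT_1 is the only control. WT_1 was the highest control for Ly6e and Phf11b.

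Of 18 class II antigen presentation genes 1 was called higher (Ifi30) and 2 lower (H2-Ob and H2-DMa), beside 3.15% and 2.00% of all genes, with a median of 0.02, and all 3 calls held in every fit without 1 library. H2-DMa, a chain of the DM peptide exchanger that DO inhibits, fell to 1526, 1305 and 1094 in Dicer-deficient libraries, against 2544, 2556, 1874 and 2419 in controls (log2 fold change -0.85 ± 0.16 (SE), adjusted p = 0.00447). Of 25 class I genes 0 were called higher and 2 lower, with a median of -0.16. H2-D1, a classical class I heavy chain, fell to 3501, 3019.5 and 2772 in Dicer-deficient libraries, against 7845, 4566, 5139 and 5983 in controls (log2 fold change -0.90 ± 0.18 (SE), adjusted p = 0.00547), and WT_1 was the highest library. Nlrc5, the class I transactivator, had 19.3 to 44.05 in Dicer-deficient libraries, against 67.8 to 134 in controls (log2 fold change -1.71 ± 0.43 (SE), adjusted p = 0.0285), and was not called without any 1 of Dicer_2, WT_1, WT_3 and WT_4 (adjusted p 0.0681 to 0.0898). Heavy-chain genes are near-identical in places, so the value of H2-D1 may include reads of its relatives.

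Of 38 phagocytosis and complement genes 8 were called higher and 1 lower (Itgax), with a median of 0.17, beside 3.15% and 2.00% of all tested genes and a median of 0.05. Of these 9 calls 5 held in all 7 fits that left out 1 library. C5ar2, a second receptor for complement C5a, read 1697, 2807 and 1488 in Dicer-deficient libraries, against 519.7, 518, 499 and 534 in controls (log2 fold change 1.89 ± 0.19 (SE), adjusted p = 1.65e-05). The controls lay within a narrow range, and Dicer_2 was the highest library. Itgb3, the integrin beta 3 chain, read 2495, 1081 and 3277 in Dicer-deficient libraries, against 624, 530.3, 349 and 369.8 in controls (log2 fold change 2.18 ± 0.29 (SE), adjusted p = 0.000240), with Dicer_2 the lowest Dicer-deficient library. Its partner Itgav, which forms with it a receptor for bridging proteins on apoptotic cells, read 632, 571 and 862 in Dicer-deficient libraries, against 233, 263, 419 and 442 in controls (log2 fold change 1.05 ± 0.24 (SE), adjusted p = 0.0137), and was not called without Dicer_3 or without WT_1 (adjusted p 0.05 to 0.0548). Elmo1, which relays engulfment signals to Rac, had 2174 to 3175 in Dicer-deficient libraries, against 1238 to 1475 in controls (log2 fold change 0.87 ± 0.16 (SE), adjusted p = 0.00304). Cd47, the surface protein that blocks uptake of the cell that bears it, had 1080.0 to 1762 in Dicer-deficient libraries, against 601 to 794 in controls (log2 fold change 0.93 ± 0.18 (SE), adjusted p = 0.00577). Scarb1, a scavenger receptor for lipoproteins, had 351 to 385 in Dicer-deficient libraries, against 139.6 to 213 in controls (log2 fold change 1.09 ± 0.22 (SE), adjusted p = 0.00689). Gas6, a bridging ligand of the receptors Axl and Mertk, read 2731, 919 and 2906 in Dicer-deficient libraries, against 836, 825, 1042 and 827 in controls (log2 fold change 1.14 ± 0.28 (SE), adjusted p = 0.0242), which overlap in Dicer_2, and was not called without any 1 of Dicer_1, Dicer_3, WT_1, WT_2, WT_3 and WT_4 (adjusted p 0.0563 to 0.11). The list thus mixes roles: Cd47 blocks uptake of the cell that bears it, and C5ar2 is a receptor for complement C5a.

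Of 36 Fc receptor and Siglec genes 3 were called higher (Siglec5, Fcrl1, Fcgr1) and 1 lower (Cd22), beside 3.15% and 2.00% of all genes. Fcgr1, the high-affinity receptor for immunoglobulin G, read 1179, 1371 and 927 in Dicer-deficient libraries, against 178, 119.6, 773 and 775 in controls (log2 fold change 1.76 ± 0.48 (SE), adjusted p = 0.0407). Its controls split into the same pairs as those of Fcrl1, low in WT_1 and WT_2 and higher in WT_3 and WT_4, and it was not called without any 1 of Dicer_1, WT_1 and WT_2 (adjusted p 0.076 to 0.138) or with DESeq2 (adjusted p = 0.403). Fcrls, another Fc receptor-like gene, also split the controls this way, at 4884, 4031 and 2916 in Dicer-deficient libraries, against 2183, 3676, 7679.6 and 11966 in controls.

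In the lysosome 8 of 59 genes were called higher and 3 lower, beside 3.15% and 2.00% of all genes, with a median of -0.07. Besides Ifi30 and Ctsl, Ctsf, a cysteine protease, rose and had 3087 to 3205 in Dicer-deficient libraries, against 1757 to 2395 in controls (log2 fold change 0.67 ± 0.15 (SE), adjusted p = 0.0110). Atp6v0a1, a subunit of the proton pump, had 1332 to 1664 in Dicer-deficient libraries, against 709.8 to 1035 in controls (log2 fold change 0.78 ± 0.17 (SE), adjusted p = 0.00990), and was not called with the term for Y-linked classes (adjusted p = 0.0557). Psap, the precursor of the saposins that assist sphingolipid breakdown, fell to 7646, 9927 and 8835 in Dicer-deficient libraries, against 14859, 15539, 16750.1 and 14436 in controls (log2 fold change -0.81 ± 0.16 (SE), adjusted p = 0.00539). Ctsc, which activates serine proteases, had 1428 to 2000.4 in Dicer-deficient libraries, against 2653 to 3122 in controls (log2 fold change -0.72 ± 0.15 (SE), adjusted p = 0.00970). Sgsh, a heparan sulfatase, was lower with a log2 fold change of -1.13 ± 0.25 (adjusted p = 0.0121), while Man2b1 and Ids, also degraders of glycans, were higher, at 0.81 ± 0.18 (adjusted p = 0.0141) and 0.72 ± 0.17 (adjusted p = 0.0155). Man2b1 was not called without Dicer_1 (adjusted p = 0.09), nor was Ids without any 1 of Dicer_1, Dicer_3 and WT_3 (adjusted p 0.0534 to 0.066). Under a model with a term for the Y-linked classes 4 of the 59 were called higher.

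Glycolysis had 1 of 31 called higher and 5 lower, beside 3.15% and 2.00% of all genes, with a median of -0.18. Hk3, a hexokinase, fell to 137, 228 and 190.0 in Dicer-deficient libraries, against 737, 538, 451 and 621 in controls (log2 fold change -1.67 ± 0.22 (SE), adjusted p = 0.000248). Pfkfb4 and Pfkfb3, which set the level of the allosteric activator of phosphofructokinase, fell too. Pfkfb4 had 422 to 757 in Dicer-deficient libraries, against 1113 to 1351 in controls (log2 fold change -1.08 ± 0.19 (SE), adjusted p = 0.00210), and Pfkfb3 272 to 348 in Dicer-deficient libraries, against 539 to 708 in controls (log2 fold change -1.0 ± 0.18 (SE), adjusted p = 0.00304). Eno1, an enolase, had 259.6 to 428 in Dicer-deficient libraries, against 570.2 to 733 in controls (log2 fold change -0.92 ± 0.19 (SE), adjusted p = 0.00884). These 4 calls held in every fit without 1 library. Pkm, pyruvate kinase, had 777 to 911 in Dicer-deficient libraries, against 1168 to 1794 in controls (log2 fold change -0.71 ± 0.17 (SE), adjusted p = 0.0173), and was not called without any 1 of Dicer_1, WT_3 and WT_4 (adjusted p 0.0548 to 0.0761). Ldhb, the lactate dehydrogenase subunit, was higher with 1548 to 2125 in Dicer-deficient libraries, against 972 to 1324 in controls (log2 fold change 0.72 ± 0.17 (SE), adjusted p = 0.0157), and was not called without any 1 of Dicer_1, WT_3 and WT_4 (adjusted p 0.064 to 0.0815). The list's median difference was 0.01 within the libraries low in Y-linked transcripts and -0.29 within those high in them. Both Eno1 and Pkm have processed copies in the genome, whose reads the counting could split or add.

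Respiratory chain genes had 1 of 61 called higher, Uqcrfs1 of complex III (log2 fold change 0.73 ± 0.19, adjusted p = 0.0340), which was not called without any 1 of Dicer_1, Dicer_2, Dicer_3, WT_1, WT_3 and WT_4 (adjusted p 0.0655 to 0.103). Serine synthesis and Atf4 target genes had 1 of 32 called higher, Psat1, and ribosomal protein genes 0 of 35 called by limma, with a median of -0.19. Of the ribosomal genes 2 had an unadjusted p under 0.05, and 0 were called by DESeq2 or edgeR. Of 43 cholesterol and lipid genes 2 were called higher and 3 lower (11.6%), beside 5.15% of all genes, with a median of -0.03. Scd2, a fatty acid desaturase, fell to 119, 119.7 and 97.3 in Dicer-deficient libraries, against 297, 219, 371 and 221 in controls (log2 fold change -1.27 ± 0.26 (SE), adjusted p = 0.00732). Cyp27a1, the sterol 27-hydroxylase, fell to 187, 293 and 111 in Dicer-deficient libraries, against 465, 455, 456 and 406 in controls (log2 fold change -1.28 ± 0.26 (SE), adjusted p = 0.00732). Both were apart from the controls in all libraries. Acly, the ATP citrate lyase, was higher at 0.65 ± 0.18 (adjusted p = 0.0396) and was not called without any 1 of Dicer_1, Dicer_3, WT_1, WT_2 and WT_4 (adjusted p 0.0898 to 0.138). Nceh1, a cholesteryl ester hydrolase, read 12.96, 15.4 and 55.6 in Dicer-deficient libraries, against 114, 87.7, 85.9 and 87.3 in controls (log2 fold change -2.0 ± 0.51 (SE), adjusted p = 0.0284), and was not called without any 1 of Dicer_1, Dicer_2, WT_1, WT_2, WT_3 and WT_4 (adjusted p 0.057 to 0.104). Without Dicer_3, its highest Dicer-deficient library, Nceh1 stood at -2.63.

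Of 64 protein kinase C and MAP kinase pathway genes 6 were called higher and 3 lower, beside 3.15% and 2.00% of all genes. Their median was 0.12. Prkce, protein kinase C epsilon, read 373, 239 and 552 in Dicer-deficient libraries, against 134, 95.7, 134 and 144 in controls (log2 fold change 1.54 ± 0.28 (SE), adjusted p = 0.00325). Dusp22, a phosphatase of the JNK pathway, had 537 to 687 in Dicer-deficient libraries, against 243 to 329 in controls (log2 fold change 1.09 ± 0.19 (SE), adjusted p = 0.00214), and Rgs1, which shortens G protein signals, had 783 to 946 in Dicer-deficient libraries, against 1235 to 2026 in controls (log2 fold change -0.92 ± 0.17 (SE), adjusted p = 0.00325). The called members of the kinase C family thus comprised Prkcq and Prkce upwards and Prkcb downwards.

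Actin and adhesion genes had 6 of 61 called higher and 4 lower, beside 3.15% and 2.00% of all genes, with a median of 0.22. Itga6, a laminin receptor chain, read 2640.4, 2359 and 2619 in Dicer-deficient libraries, against 1099, 1408, 682 and 1238 in controls (log2 fold change 1.25 ± 0.20 (SE), adjusted p = 0.00119), and Lsp1, an F-actin-binding protein of leukocytes, 2441, 1587 and 1664 in Dicer-deficient libraries, against 1148, 913, 1117 and 919 in controls (log2 fold change 0.87 ± 0.17 (SE), adjusted p = 0.00573). Both were higher in all Dicer-deficient libraries than in any control. In the matrix list 4 of 25 tested genes were called higher and 3 lower, beside the same shares of all genes, with a median of -0.38. Tgfbi, a secreted adhesion protein induced by transforming growth factor beta, read 2164, 780.0 and 2387 in Dicer-deficient libraries, against 455, 494, 478 and 421 in controls (log2 fold change 1.78 ± 0.28 (SE), adjusted p = 0.000945), with Dicer_2 the lowest Dicer-deficient library. Col27a1, a fibrillar collagen, had 5105 to 8298 in Dicer-deficient libraries, against 2645 to 4366 in controls (log2 fold change 0.89 ± 0.19 (SE), adjusted p = 0.0110), and was not called without WT_4 (adjusted p = 0.0549). Only 25 of the 48 matrix genes in the table reached the filter, so the share of the list is of the expressed members.

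In the transforming growth factor beta axis 3 of 34 genes were called higher and 2 lower, beside 3.15% and 2.00% of all genes. The median was 0.21. Acvrl1 (ALK1), a type I receptor, fell to 49.2, 23.2 and 37.1 in Dicer-deficient libraries, against 153, 163, 161 and 159 in controls (log2 fold change -2.16 ± 0.36 (SE), adjusted p = 0.00170), and Id2, a dominant-negative helix-loop-helix factor that such receptors induce, to 562, 320.5 and 904 in Dicer-deficient libraries, against 1267, 1555, 1128 and 1217 in controls (log2 fold change -1.23 ± 0.25 (SE), adjusted p = 0.00669). Smurf2, a ubiquitin ligase that removes the receptors, was higher with 728 to 844 in Dicer-deficient libraries, against 435 to 508 in controls (log2 fold change 0.70 ± 0.16 (SE), adjusted p = 0.0151). These 3 calls held in every fit without 1 library, and that of Smurf2 was lost with the term for Y-linked classes (adjusted p = 0.0563). Among 34 sulfotransferases and glycan enzymes 2 were called higher and 1 lower, Chst2 and Chst7 as above and St3gal5, the GM3 synthase, with 849 to 1242 in Dicer-deficient libraries, against 559 to 673 in controls (log2 fold change 0.77 ± 0.17 (SE), adjusted p = 0.0121), which was not called without Dicer_1 (adjusted p = 0.0514). Of 30 p53 targets 3 were called higher and 2 lower, beside the same shares of all genes, with a median of -0.28. Perp is the one whose call held in every fit without 1 library. Those of Ccng2, Sesn1, Ephx1 and Plk3 were lost in 4 to 6 of the 7.

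Pecam1 (CD31), a marker of vascular cells that some macrophages also carry, fell to 38.9, 30.9 and 41.7 in Dicer-deficient libraries, against 139, 195, 193 and 139 in controls (log2 fold change -2.13 ± 0.34 (SE), adjusted p = 0.00128), while Cldn5, specific to brain endothelium, was listed at 0 throughout. Slc1a3, the astrocyte glutamate transporter, fell to 596, 1119.7 and 820.4 in Dicer-deficient libraries, against 1381, 1404, 1563 and 1474 in controls (log2 fold change -0.83 ± 0.18 (SE), adjusted p = 0.0122), with Gfap at 0 and Aqp4 at 3.86 to 10.4 in Dicer-deficient libraries and 0 to 5.14 in controls, and it was not called without Dicer_1 or without WT_3 (adjusted p 0.0531 to 0.0804). In bulk libraries fewer cells of a type and less RNA per cell cannot be told apart. The part of other cells in the values of these genes was not tested.

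**Figure D4:**
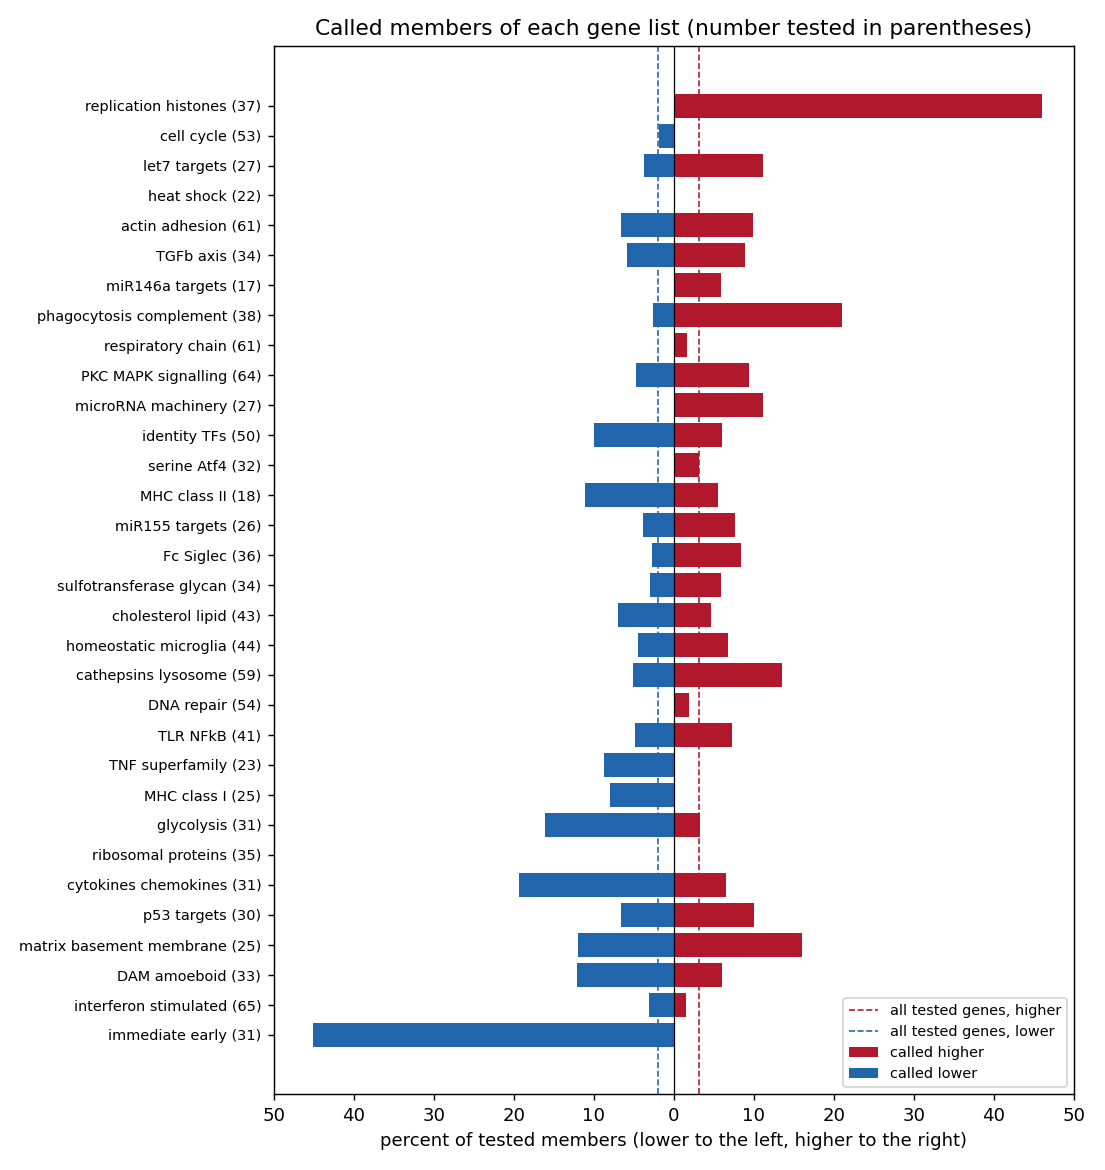
Percent of the tested members of each gene list that were called higher (red, to the right) or lower (blue, to the left) in Dicer-deficient microglia, with lists in order of median log2 fold change from the top and dashed lines at the shares of all tested genes (3.15% and 2.00%). Replication histones reach 45.9% higher and immediate early genes 45.2% lower. All other lists shown stay below both.

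The plot of list shares sets the histones and the immediate early genes at opposite ends. Most other lists hold calls in both directions.

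The same genotypes were profiled at steady state in a second table of the series, labelled total brain microglia, with 3 Dicer-deficient (Dicerfl/-) and 3 control (Dicer+/-) libraries of the same age and sort, marked PBS. No library is shared, the tables were normalised separately, and no test was made across them. Its fit also held the LPS libraries of that table, 4 of each genotype, which share 1 estimate of the spread with the steady-state groups and enter no contrast given here. In that fit 107 of 13423 genes were called higher (0.797%) and 185 lower (1.38%), 292 in all. With the steady-state groups fitted alone 438 of 13244 genes were called, 201 higher and 237 lower. The values below are from the fit with all groups. The count of 292 ranged widely when 1 library was left out: 89 without WT_9, 127 without WT_8, 143 without Dicer_5, 153 without WT_7, 197 without Dicer_11b and 216 without Dicer_12. All 15 of the highest and all 15 of the lowest genes had the same sign there. Of the 15 highest 10 were called higher and of the 15 lowest 12 were called lower in that table.

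Chst2 stood at 3.92 ± 0.35 there (181 to 310.4 in Dicer-deficient libraries, against 7.60 to 24.1 in controls), Perp at 4.38 ± 0.54 (85.7 to 269.8 in Dicer-deficient libraries, against 4.20 to 10.3 in controls), and Siglec5 at 2.80 ± 0.44 (615 to 1951 in Dicer-deficient libraries, against 131 to 173 in controls), each called (adjusted p = 1.59e-05, 0.000311 and 0.00249). Ifi30 stood at 2.49 ± 0.31 (3866 to 7852 in Dicer-deficient libraries, against 862 to 931 in controls, adjusted p = 0.000311). Among lower genes Chst7 stood at -3.03 ± 0.30 (20.9 to 30.9 in Dicer-deficient libraries, against 196 to 261 in controls, adjusted p = 4.76e-05) and Prkcb at -2.13 ± 0.19 (166 to 205 in Dicer-deficient libraries, against 725 to 896 in controls, adjusted p = 1.59e-05). The opposite directions of the 2 sulfotransferases, and of Prkcq (2.66 ± 0.66) and Prkcb, were therefore present in both tables. Not called there were Niacr1 (2.02 ± 0.53), Hlf (1.78 ± 0.72), Psat1 (1.69 ± 0.48), Hsf2bp (1.77 ± 0.54) and Hist1h2be (1.06 ± 0.38) on the higher side, and Ildr2 (-0.75 ± 0.52), Fblim1 (-1.17 ± 0.64) and Gabbr1 (-1.57 ± 0.54) on the lower side. Gata2 stood at 3.65 ± 0.63 (20.9 to 112 in Dicer-deficient libraries, against 1.70 to 5.70 in controls). Dicer1 stood at -0.49 ± 0.28 (adjusted p = 0.427).

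**Figure D5:**
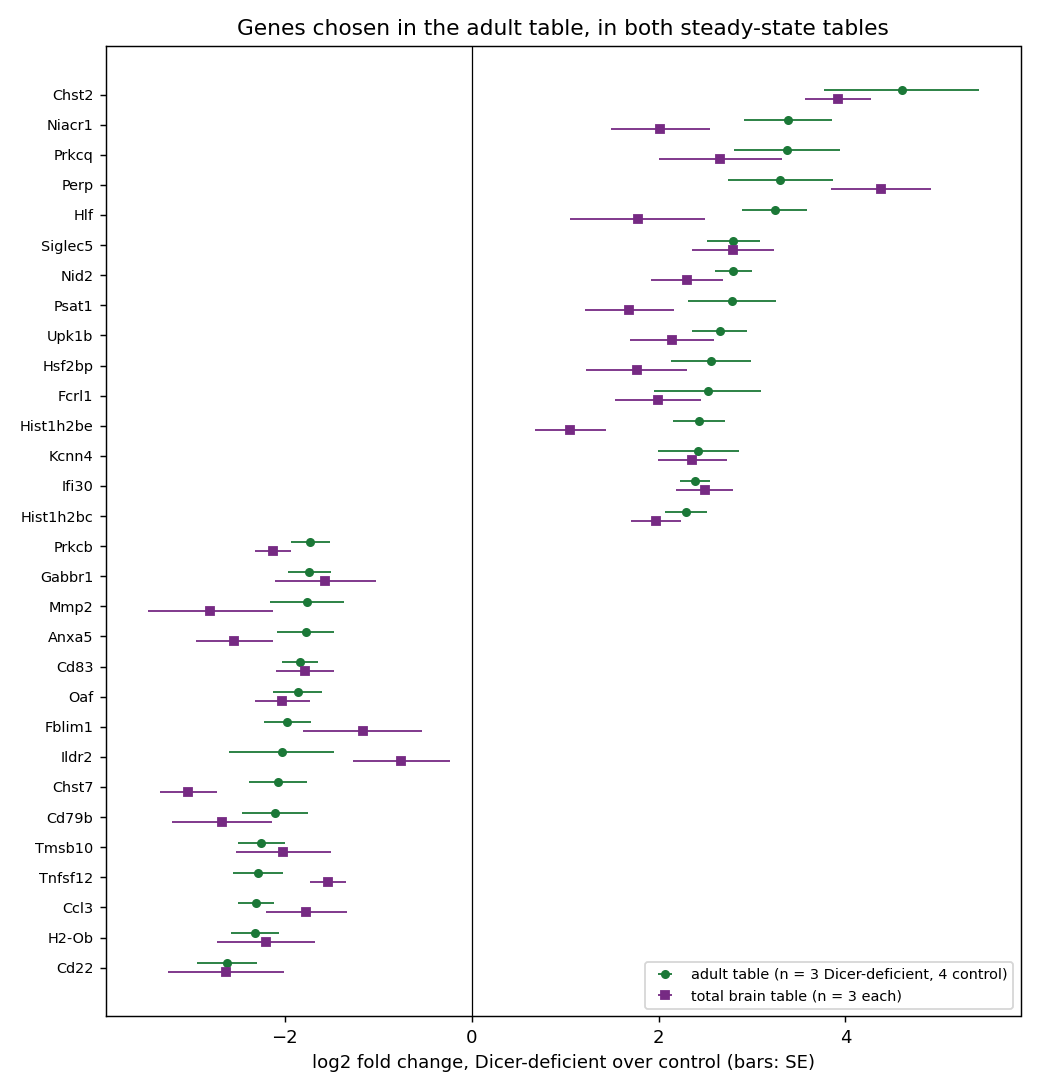
Log2 fold changes (Dicer-deficient over control, x axis) with SE bars of the 15 highest and 15 lowest genes, chosen in the adult table (green circles, n = 3 and 4) and shown beside their values in the total brain table (purple squares, n = 3 each). All 30 genes lie on the same side of 0 in both tables, and the values of Hist1h2be, Hlf and Ildr2 are closer to 0 in the total brain table.

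The plot of both tables side by side shows overlapping error bars for Chst2, Siglec5, Ifi30, Cd22 and H2-Ob. Of the 34 replication histones that were tested in both, 16 were called higher here and 1, Hist1h2bc (1.97 ± 0.27, adjusted p = 0.000740), in the total brain table, with medians of 1.67 and 0.21. Hist1h1c stood at -1.18 ± 0.48 there (5.70 to 15.5 in Dicer-deficient libraries, against 18.5 to 28.7 in controls, adjusted p = 0.229). Hist1h2ac had 9.10 to 50.4 in Dicer-deficient libraries there, against 10.3 to 17.7 in controls. Both genes had far lower values there than here. Hist1h2bc had 499.4 to 668.2 there, against 136.2 to 163.1 in controls. How far low values limit the histone calls there was not tested. The other lists are given likewise as values. The 31 immediate early genes had medians of -0.62 here and -0.63 there, where 5 were called lower, Egr1 among them (-1.90 ± 0.31, adjusted p = 0.00283). The let-7 targets tested in both had medians of 0.40 and 0.03, and interferon-stimulated genes -0.52 and -0.23. Tnrc6a (0.25 ± 0.24), Tnrc6b (0.24 ± 0.33) and Numb (0.23 ± 0.27) were not called there, and Insr was (1.27 ± 0.25, adjusted p = 0.0129). Whether any value differs between the tables was not tested.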

How the data were processed

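Per the submitters' processing notes, reads were demultiplexed with bcl2fastq, aligned with HISAT 0.1.5 to mm9 and handled with SAMtools, HOMER and DESeq2. The deposited values are a signal scaled by the authors: in each library nearly every value is a whole number of reads times 1 factor (100% within 0.1 read), which gave the depth of 898451 to 1991621 reads. The files give no strand setting, so overlapping antisense genes cannot be told apart.

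Log2(value + 1) was tested with limma 3.58.1 (trend, R 4.3.3) on genes reaching 1 in at least 3 libraries, with Benjamini-Hochberg adjustment over all 11045 genes, and genes at an adjusted p under 0.05 were called. A fold change on this scale understates low genes. The limma and edgeR 4.0.16 steps were tested on simulated data, and the DESeq2 step was not. edgeR and DESeq2 1.42.0 were run on the recovered reads as alternatives. 0 columns of per-sample values were left unmapped.

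The genes named are Dicer1, the 15 most raised and 15 most lowered called genes without overlap whose mean was at least the median, and up to 6 called members of each of 41 lists with the smallest p, or its lowest-p member where none was called. Further called members, and Ago2, Cd79a and the histone variants, were added after their values were seen. The comparison, lists and rule were chosen with earlier results of these data known. Mature microRNA and promoter sequences are from RefSeq (GRCm38.p6), and 3′ UTRs from the GRCm38 reference transcripts, matched by accession, symbol or synonym for 99.5% of tested genes. No coordinates were converted from mm9. miR-124-3p and miR-122-5p were not analysed here. Same-numbered libraries of the 2 groups did not deviate together.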

Additional observations from a re-analysis of the deposited data

Results flagged for a closer look

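Among the 131 named genes 10 had a control library that stood apart from the other 3 by Dixon's test, which chance gives for about 1 in 20 groups. The library standing apart was WT_1 for 3 genes, WT_2 for 2, WT_3 for 2 and WT_4 for 3.

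Of called genes, Hsf2bp read 135.57 in WT_2, against 89.1 to 92.4 in the other controls, and Nfkb1 read 1000.8 in WT_2, against 757 to 765. Gpr84 read 515.55 in WT_3, against 1077 to 1191, so that the low control widens its difference. Osm read 251.64 in WT_4, against 124 to 145, and Gbp7 read 1386.6 in WT_4, against 993 to 1037. Nceh1 read 113.84 in WT_1, against 85.9 to 87.7, and Gata2 4.95 in WT_1, a single read, against 0 in the others.

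Of genes that were not called, Ddx3y, on the Y chromosome, read 895.88 in WT_1, against 16.1 to 46.2. Snap25, a neuronal marker, read 5.37 in WT_3, a single read, against 0 in the other controls. In Dicer-deficient libraries Snap25 read 7.77, 15.4 and 23.2, a few reads each (limma, log2 fold change 3.255 ± 1.144 (SE), adjusted p = 0.118). In the total brain table Snap25 had 6.70 to 15.5 in Dicer-deficient libraries and 0 in controls, and was called higher (limma, log2 fold change 3.675 ± 0.668 (SE), adjusted p = 0.00648). Hbb-b2, a haemoglobin gene, read 138.66 in WT_4, against 0 to 7.97. What sets these control libraries apart was not tested.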

How the results depend on the processing

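The 16 alternatives left 76 of the 122 named called genes called in every one, and the log2 fold change of Hbb-b2, an erythroid marker that was not called, was the only one among the named genes whose sign turned, at -0.14 with DESeq2, -0.10 with edgeR on its RLE factors and -0.085 with TMM, against 1.69. DESeq2, on the recovered reads, called 540 of the 569 genes (94.9%) and 680 in all. Scaling moved the median log2 fold change of all genes to -0.01 (DESeq2) from 0.05. A term for the classes of Y-linked transcripts left 354 called genes, 230 higher and 124 lower. With 1 library left out, the adult calls ran from 344 to 634, those higher from 178 to 396 and those lower from 121 to 238. In the total brain table the calls ran from 89 to 216, those higher from 46 to 72 and those lower from 43 to 144, and the total brain genes higher numbered 201 when its steady-state groups were fitted alone. The cause of these shifts was not tested, except that fewer libraries enter each fit.

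A fit with the replicate number as a replicate block, on the 6 libraries with shared numbers, called 450 genes (278 higher, 172 lower). The same 6 libraries without the block gave 368. Deviations of same-numbered libraries correlated at -0.0112, 0.00261 and -0.00997. The labels do not say whether same-numbered libraries are pairs, and these correlations cannot settle it. With 898451 reads in the shallowest library, 1 read is worth 5.14 there, and genes near that value cannot be compared. The p-values rest on 3 and 4 libraries.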
